A study of Mus musculus with 6 samples.

Results

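CpGs with a methylation level of at least 0.8 in mouse embryonic stem cells (mESCs) were examined for where they lie in the genome, for their local CpG density and sequence, and for their levels in induced pluripotent stem cells (iPSCs) made in 2 ways. The members were selected on the mESC values: reads were summed over the 2 libraries of each of 3 cell types, and autosomal CpGs with at least 20 summed reads in every type were compared. CpGs where at least 0.8 of the mESC reads were methylated were kept, which gave 22633 members among 1001531 compared CpGs (2.26%). A read lay on 1466609 autosomal CpGs in at least 1 library. Because mESC reads chose the members, their mESC levels are a description and no comparison with mESCs was tested at them.

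The study measured DNA methylation by reduced representation bisulfite sequencing (RRBS), which reads the ends of MspI fragments and so favours CpGs in or near CCGG sites, to compare pluripotent cells from different reprogramming routes with mESCs. Each of the 3 cell types, C-iPSCs, 4F-iPSCs and mESCs, had 2 libraries. C-iPSCs came from OG2-MEFs (mouse embryonic fibroblasts with a reporter of Oct4 expression) treated with a small-molecule cocktail, and 4F-iPSCs from OG2-MEFs infected with retroviruses carrying Oct4, Sox2, Klf4 and c-Myc. Both were collected at passages 5 to 10, whereas the mESCs were the established line E14 at passages 20 to 30. All samples were labelled male and were grown with 1000 U/ml LIF, 3 μM CHIR99021 and 1 μM PD0325901 on mitomycin C-treated MEFs, which per the labels were taken away on gelatin before the cells were harvested. The OG2-MEFs derived from mice of C57BL/6J, of CBA/CaJ and of 129S4/SvJaeJ, so cell type, strain and passage cannot be told apart in any contrast with E14.

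Read counts summed over CpGs were 91533371 and 84792206 in C-iPSC replicates 1 and 2. They were 96534037 and 94215636 in 4F-iPSC replicates 1 and 2, and 75077465 and 53694199 in mESC replicates 1 and 2. A read over several CpGs counts at each of them, so these sums are not numbers of reads. On the members the median was 58 and 59 reads per CpG in the C-iPSC libraries, 66 and 65 in the 4F-iPSC libraries, and 49 and 36 in the mESC libraries. The labels name no batch. Whether the replicates of a cell type were separate lines is not stated, so tests over libraries measure only the spread between these samples.

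In mammals, DNA methylation is written mostly on CpGs by DNMT3A and DNMT3B and copied to new strands by DNMT1, and TET enzymes oxidise it. Most CpG-rich promoters stay free of it, while transposon-derived repeats, gene bodies, imprinted control regions and some germline gene promoters carry it. Culture of mESCs with the kinase inhibitors known as 2i lowers methylation across most of the genome, and imprinted regions and some repeats are known to keep more of it than their surroundings.

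Sequences of the members show what kinds of locus carried them. The following are from the GRCm38 (mm10) reference, + strand, in lower case with every member CpG in capitals. They are stretches of 3 of the 4 longest runs of members, where a run is at least 3 members with neighbours at most 300 bp apart, and of the Peg13 promoter, the imprinted promoter with the most members.
run 1, intergenic near Gm9110, chr12:5055870-5056133: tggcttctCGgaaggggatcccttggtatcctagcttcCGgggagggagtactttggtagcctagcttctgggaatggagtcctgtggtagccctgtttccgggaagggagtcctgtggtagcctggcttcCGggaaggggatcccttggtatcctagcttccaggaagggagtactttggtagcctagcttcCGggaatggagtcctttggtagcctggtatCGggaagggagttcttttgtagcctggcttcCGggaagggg
run 2, intergenic near Gm9110, chr12:5050671-5050904: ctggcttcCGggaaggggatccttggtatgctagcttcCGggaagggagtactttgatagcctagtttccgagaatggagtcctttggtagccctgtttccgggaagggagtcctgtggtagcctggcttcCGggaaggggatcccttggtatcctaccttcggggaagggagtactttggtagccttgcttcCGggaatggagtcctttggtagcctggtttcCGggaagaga
run 4, intron of Tbc1d22a, chr15:86223487-86223780: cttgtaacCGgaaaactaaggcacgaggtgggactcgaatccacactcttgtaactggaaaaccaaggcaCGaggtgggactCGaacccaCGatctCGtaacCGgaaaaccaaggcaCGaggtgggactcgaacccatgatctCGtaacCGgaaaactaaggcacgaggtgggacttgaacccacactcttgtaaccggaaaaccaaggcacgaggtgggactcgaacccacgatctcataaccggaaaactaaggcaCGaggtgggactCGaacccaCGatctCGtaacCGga
Peg13 promoter inside Trappc9, chr15:72809692-72809889: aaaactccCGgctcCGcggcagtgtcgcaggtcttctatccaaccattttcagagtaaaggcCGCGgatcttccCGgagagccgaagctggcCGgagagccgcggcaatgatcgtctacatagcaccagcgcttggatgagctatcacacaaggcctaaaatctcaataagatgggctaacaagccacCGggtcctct
Short words recurred in these runs. The word ttccgggaag, which holds an MspI site, occurred 3 times in the stretch of run 1 and 5 times in that of run 2, and the word aaggcacgag occurred 6 times in that of run 4.

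The 5 sequence words of 26 bases, centred on the CpG and read on either strand, that the most members shared stand for many loci each, and all but word 3 are shown. Every member with one of these words lay in a soft-masked repeat of the reference.
word 1: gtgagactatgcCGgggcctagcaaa
word 2: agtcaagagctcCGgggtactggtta
word 4: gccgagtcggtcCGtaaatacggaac
word 5: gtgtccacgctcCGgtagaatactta
Of the named members called between the iPSC types 5 are shown with 20 bases on either side, and only the called CpG is in capitals. They are 3 of the 5 largest higher calls, in repeats and outside them, and 2 of the 5 largest lower calls, near Ccr1 and Fcgr3.
Gm24796, higher in 4F-iPSCs, intron of Gm12649, chr4:93624575-93624616: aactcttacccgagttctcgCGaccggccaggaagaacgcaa
Gm24448, higher in 4F-iPSCs, intron of Tmem268, chr4:63577214-63577255: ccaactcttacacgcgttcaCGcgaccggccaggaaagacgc
B020018J22Rik, higher in 4F-iPSCs, intron, chr12:112431917-112431958: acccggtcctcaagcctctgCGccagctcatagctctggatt
Ccr1, lower in 4F-iPSCs, intergenic, chr9:123924713-123924754: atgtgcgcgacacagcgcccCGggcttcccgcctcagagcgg
Fcgr3, lower in 4F-iPSCs, intergenic, chr1:171045132-171045173: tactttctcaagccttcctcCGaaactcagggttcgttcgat

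Members lay mostly outside genes and promoters. Of the members 52.3% were intergenic, 32.7% were in introns, 8.76% in exons, 1.44% in 3'UTRs, 0.0574% in 5'UTRs and 4.81% in promoters, taken as 1 kb to each side of a transcript start. Among all compared CpGs 54.1% were in promoters and 18.7% were intergenic. The 280905 CpGs with an mESC level from 0.3 to under 0.8 were nearer to the members, with 6.94% in promoters, 37.6% in introns and 39.5% intergenic. The median distance to the nearest transcript start was 18347 bp for members, 14360 bp for those CpGs and 669 bp for all compared CpGs, and 20.8% of members were more than 50 kb away. By autosome, the share of compared CpGs that were members ran from 1.33% on chromosome 11 to 3.30% on chromosome 13.

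Local CpG density was low around most members. Within 100 bp a member had a mean of 5.30 other CpGs and a median of 4, against a mean of 4.84 and a median of 4 at an mESC level from 0.3 to under 0.8, a mean of 14.4 and a median of 13 over all compared CpGs, and a mean of 18.5 at the 697993 CpGs under 0.3. Members made up 6.33% of compared CpGs with 0 or 1 other CpG within 100 bp, 5.24% with 2 or 3, 4.51% with 4 to 7, 2.5% with 8 to 14 and 0.0933% with at least 15. The share thus fell at each step of density, and only 427 members lay in the densest class, which held 457739 compared CpGs. Those 427 were 82.4% soft-masked, against 29.7% of the 2808 members with 0 or 1 other CpG. The bases within 100 bp were 51.4% G or C around members and 63.1% around all compared CpGs. CCGG sites held 72.8% of members, 60.5% of CpGs from 0.3 to under 0.8 and 33.1% of all compared CpGs.

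**Figure D1:**
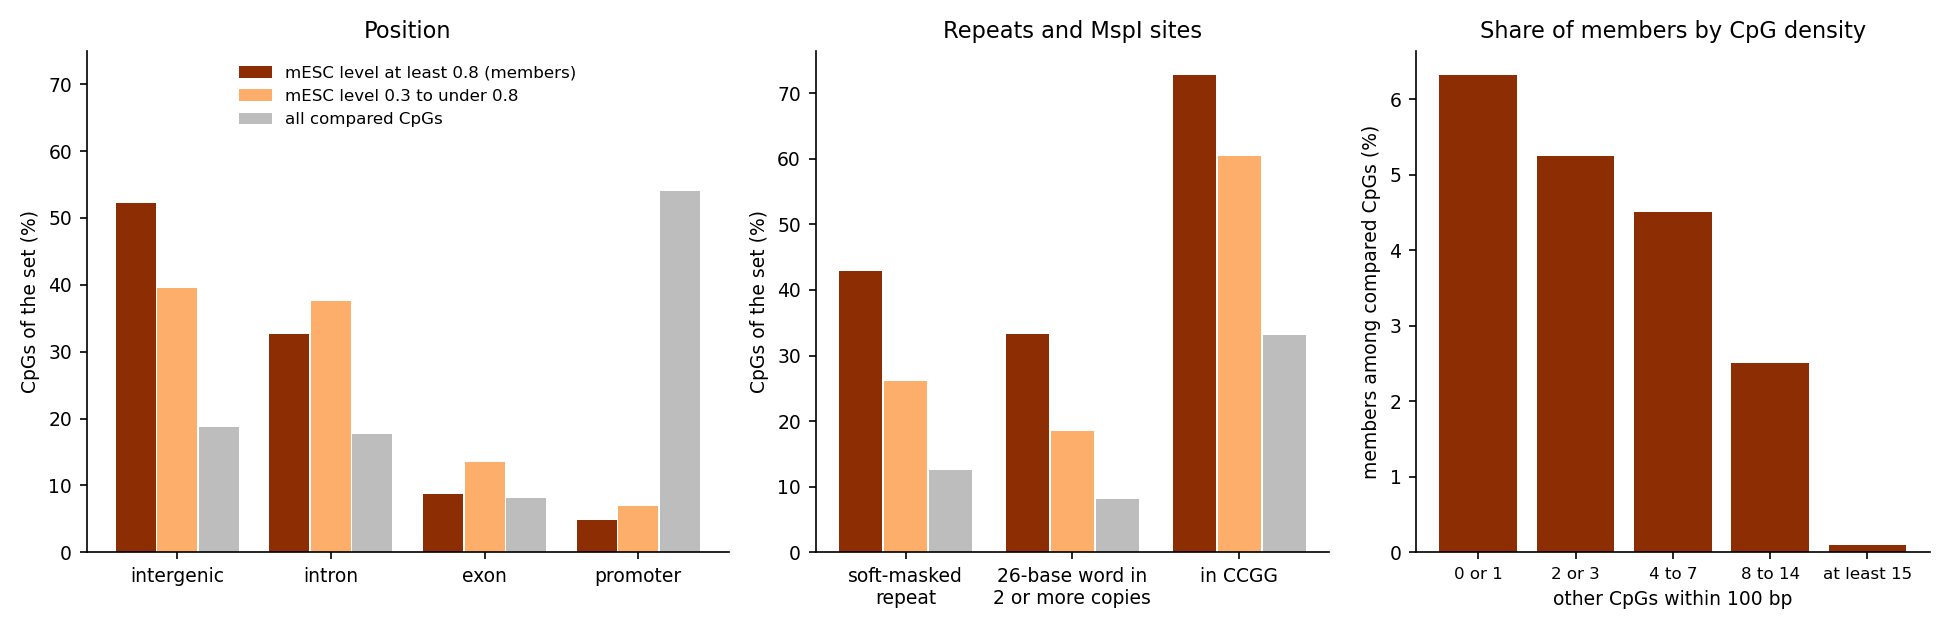
Position, repeat and MspI context of members, of CpGs with an mESC level from 0.3 to under 0.8 and of all compared CpGs (bars, percent of each set), and the percent of compared CpGs that were members by the number of other CpGs within 100 bp. Promoters hold 4.81% of members and 54.1% of all compared CpGs, and the share of members falls from 6.33% to 0.0933% as density rises.

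Soft-masked repeats held 42.9% of members, 26.2% of CpGs from 0.3 to under 0.8 and 12.6% of all compared CpGs. Put the other way, members were 7.69% of the 126055 compared CpGs in soft-masked repeats and 1.48% of the others. The share of members in repeats was 19.6% when only words with 1 copy in the genome were kept. The other sets were not limited in this way, so their shares above cannot be set beside it. Sequence copy number was counted as the number of times the 26-base word occurs in the reference. A word in at least 2 copies was found at 33.3% of members, 18.5% of CpGs from 0.3 to under 0.8 and 8.21% of all compared CpGs. One in at least 10 copies was found at 22%, 13% and 5.34% in the same order, and one in at least 1000 copies at 3.23%, 4.03% and 1.67%, where members were below the nearest class. Members were 1.64% of compared CpGs with a single-copy word, 8.89% with 2 to 9 copies, 11.8% with 10 to under 100, 11.4% with 100 to under 1000 and 4.36% with at least 1000. The share was thus highest at moderate copy number and fell again for the most repeated words.

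The most shared words differed in this respect. Word 1 had 21139 copies in the genome and was read at 2012 compared CpGs, of which 98 (4.87%) were members. Its loci averaged 63.9% in mESCs over all compared copies. Word 2, with 22103 copies, had 93 members among 1391 compared CpGs (6.69%) and a mean mESC level of 65.3%. Words 3, 4 and 5 had far fewer copies, at 515, 613 and 880, and more of their compared CpGs were members: 49 of 108, 46 of 69 and 43 of 51. Word 5 was therefore a member at 84.3% of its compared loci, on 17 chromosomes. Of its 43 members 23 had a CpG with word 4 within 100 bp, so both words often marked the same loci. CpG density differed as well, with a mean of 1.28 other CpGs within 100 bp at members with word 1, 1.43 with word 2, 11.9 with word 4 and 9.98 with word 5. In all, 80 words were shared by at least 10 members and covered 7.22% of members, and for 41 of them most compared copies were members (865 of 1165).

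The same word gave different levels in the iPSC libraries. Over all compared copies of word 1 the mean level was 76.9% and 86.3% in C-iPSC replicates 1 and 2, and 90.4% and 91.9% in 4F-iPSC replicates 1 and 2. Over all copies of word 5 it was 87.7% and 93.6% in the C-iPSC libraries and 94.3% and 96.1% in the 4F-iPSC libraries. For both words C-iPSC replicate 1 was lowest and the 4F-iPSC libraries were above both C-iPSC libraries.

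Members were clustered, and CpGs on the same fragment share reads and molecules. Among compared CpGs within 10 bp of another member 38.7% were members themselves, which dropped to 24.4% at 11 to 30 bp, 13.7% at 31 to 100 bp, 15.5% over 100 to 300 bp, 7.44% over 300 to 1000 bp and 1.04% beyond 10000 bp. CpGs within 10 bp that were not members had mean summed levels of 64.3% (mESC), 77.4% (C-iPSC) and 88.7% (4F-iPSC). Beyond 10000 bp from any member the averages were 16.3%, 22% and 26.6%. Of the members 11551 (51%) had no other member within 300 bp, 2409 pairs were found, and 6264 members (27.7%) fell into 1556 runs of at least 3.

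The threshold fell within a continuous distribution. Members from 0.80 to under 0.81 in mESCs (3439) had a mean C-iPSC level of 87.8% and a mean 4F-iPSC level of 93.5%, with 35.0% soft-masked and 4.76 other CpGs within 100 bp. CpGs just outside, from 0.79 to under 0.80 (2861), averaged 87.6% and 93.5%, with 34.1% soft-masked and 4.81 other CpGs. CpGs chosen in 1 mESC library were lower in the other. CpGs chosen in mESC replicate 1 alone, with at least 20 reads in each mESC library, averaged 85.4% there and 82.2% in replicate 2, and 64.3% of the 16921 were at least 0.8 in replicate 2. CpGs chosen in replicate 2 averaged 85.8% there and 76.3% in replicate 1, with 40.1% of the 27155 at least 0.8 in replicate 1. Over all CpGs compared in this way 3.35% reached 0.8 in replicate 2 and 2.09% in replicate 1.

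Levels of the members in iPSCs were first read library by library, over the 21338 members (94.3%) with at least 10 reads in all 4 iPSC libraries. The mean over members was 87.6% in C-iPSC replicate 1, 92.7% in C-iPSC replicate 2, 94.2% in 4F-iPSC replicate 1 and 95.3% in 4F-iPSC replicate 2. Both 4F-iPSC libraries were above both C-iPSC libraries, but C-iPSC replicate 2 lay closer to the 4F-iPSC libraries than to C-iPSC replicate 1. In the mESC libraries the members averaged 84.3% and 86.5%, by choice. The group means were 90.1% ± 3.61 (SD, n = 2) for C-iPSCs and 94.8% ± 0.742 (SD, n = 2) for 4F-iPSCs, a difference of 4.64 points with a gap of 1.57 points between the nearest libraries. The same difference was 4.97 points over all compared CpGs and 11.2 points at an mESC level from 0.3 to under 0.8, so that at members was near the value over all CpGs. The two-sided exact permutation test over libraries gave p = 0.33, the smallest that this test can give with 2 libraries against 2, so it could not pass a threshold of 0.05 at any difference. Without C-iPSC replicate 1 the difference was 2.10 points, and without C-iPSC replicate 2 it was 7.22 points.

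**Figure D2:**
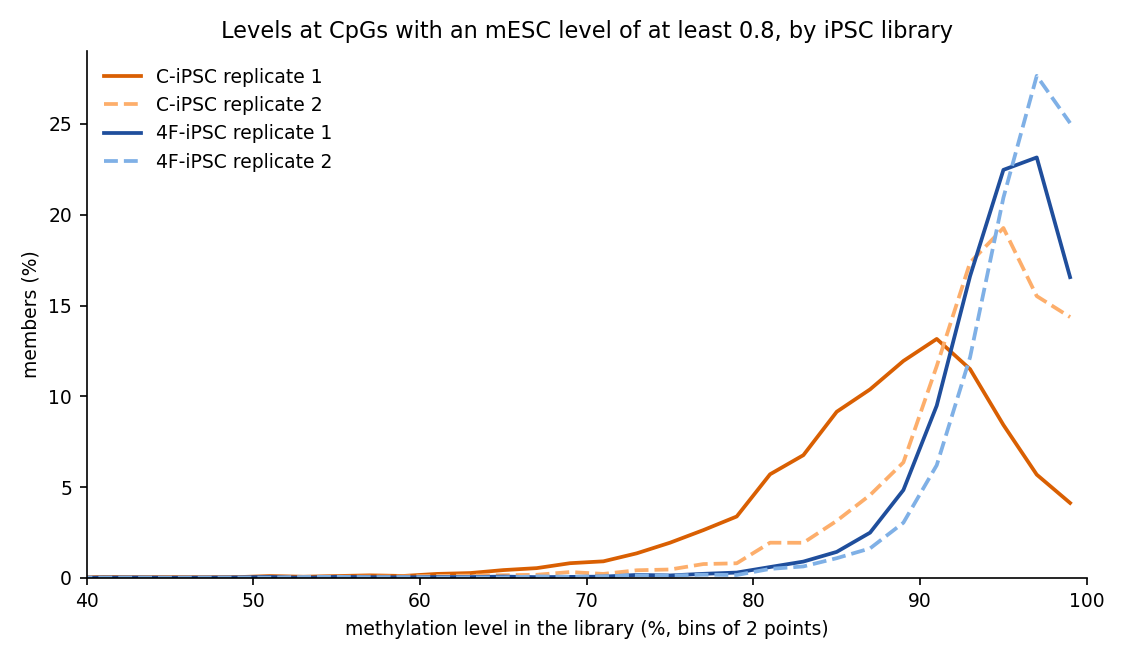
Percent of members at each methylation level (bins of 2 points) in each iPSC library, 1 line per library. C-iPSC replicate 1 is shifted to lower levels (mean 87.6%), and the other libraries have means of 92.7%, 94.2% and 95.3%.

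On summed reads 93.8% of members had a C-iPSC level of at least 0.8, and 98.9% a 4F-iPSC level that high. By library the share was 86.8% and 96.1% in C-iPSC replicates 1 and 2, and 98.5% and 98.9% in 4F-iPSC replicates 1 and 2. The C-iPSC level reached 0.9 at 59.6% of members and the 4F-iPSC level at 92.6%. In C-iPSCs 1397 members were under 0.8, of which 1074 were from 0.7 to under 0.8 and 21 were under 0.5, with none under 0.3. In 4F-iPSCs 239 members were under 0.8, 36 were under 0.5 and 10 were under 0.3. The level was at least 0.8 in both iPSC types at 21159 members (93.5%) and in neither at 162.

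Levels were also read by density. With 0 or 1 other CpG within 100 bp the member means were 86.0% and 93.3% in C-iPSC replicates 1 and 2, and 93.6% and 95.1% in 4F-iPSC replicates 1 and 2. With 4 to 7 they were 88.2% and 93.2% in C-iPSCs, then 94.4% and 95.4% in 4F-iPSCs. With at least 15 other CpGs they were 85.3% and 87.6% in the C-iPSC libraries and 94.3% and 94.4% in the 4F-iPSC libraries. C-iPSC replicate 2 was thus lowest in the densest class, whereas C-iPSC replicate 1 was nearly as low in the sparsest class and highest in between, and each 4F-iPSC library stayed within about a point. The 4F-iPSC minus C-iPSC difference was 4.64 points with 0 or 1 other CpG, 4.27 with 2 or 3, 4.2 with 4 to 7, 5.57 with 8 to 14 and 7.92 with at least 15. A change of the difference with density was not tested. In soft-masked repeats the difference was 5.31 points and outside them 4.14 points, and it was 4.32 points for single-copy words and 6.06 points for words in at least 1000 copies.

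**Figure D3:**
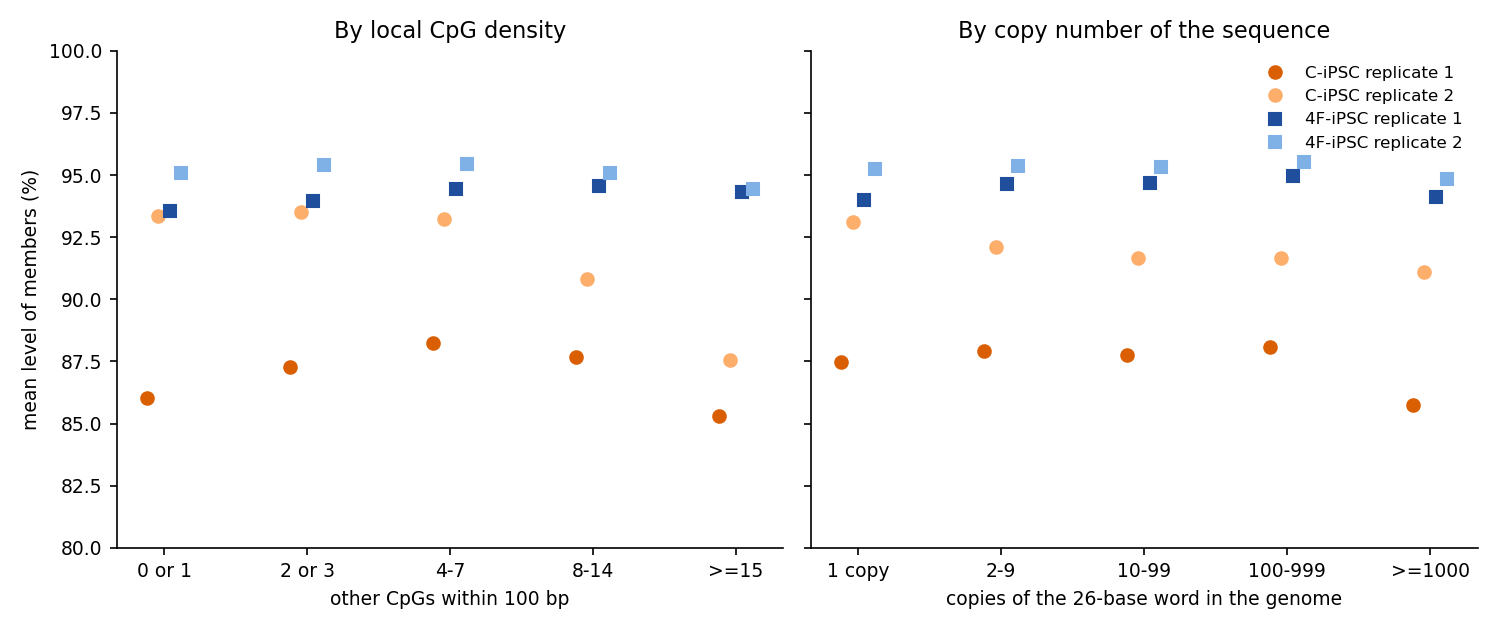
Mean level of members (percent) in each iPSC library by the number of other CpGs within 100 bp and by the number of genome copies of the 26-base word, 1 point per library. In the densest class the C-iPSC libraries are at 85.3% and 87.6% and the 4F-iPSC libraries at 94.3% and 94.4%.

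Individual members were compared between 4F-iPSCs and C-iPSCs by an exact test of Fisher on the reads summed by cell type. This test takes each read as independent and uses no spread between libraries, so its p values cover counting error only. The p values were adjusted over all compared CpGs, and a call required an adjusted p under 0.05 and a difference above 33.3 points. Of the members 41 (0.181%) were called higher in 4F-iPSCs, against 1.01% of all compared CpGs and 1.71% at an mESC level from 0.3 to under 0.8, and 11 (0.0486%) were called lower, against 0.0201% of all and 0.0619% in that class. A member could be called higher only if its C-iPSC level was under 66.7%, which held for 219 members and for 784042 of all compared CpGs. A lower call needed a C-iPSC level above 33.3%, and 0 members but 650250 of all compared CpGs were under 0.3. The levels thus bounded the calls in both directions, and the shares above are not alike in what could be called. The quasi-binomial test, with libraries as replicates, called 27 of the 41 and 8 of the 11 and no other member. Without C-iPSC replicate 2, 127 members were called higher. Lower calls numbered 18 when members were chosen without mESC replicate 1, and 19 without 4F-iPSC replicate 2.

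Without a minimum difference, both 4F-iPSC libraries were above both C-iPSC libraries at 9391 (44.0%) of the 21338 members, against 30.8% of all compared CpGs with at least 10 reads in each iPSC library. They were below at 571 (2.68%), against 3.56% of all. At CpGs with an mESC level from 0.3 to under 0.8 the shares were 61.3% above and 1.18% below. On summed reads the 4F-iPSC level was higher at 19343 members (85.5%), with a median difference of 4.03 points. From 0.3 to under 0.8 in mESCs it was higher at 93.9% of CpGs, with a median difference of 10.5 points, and over all compared CpGs at 65.9%, with 1.26 points.

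**Figure D4:**
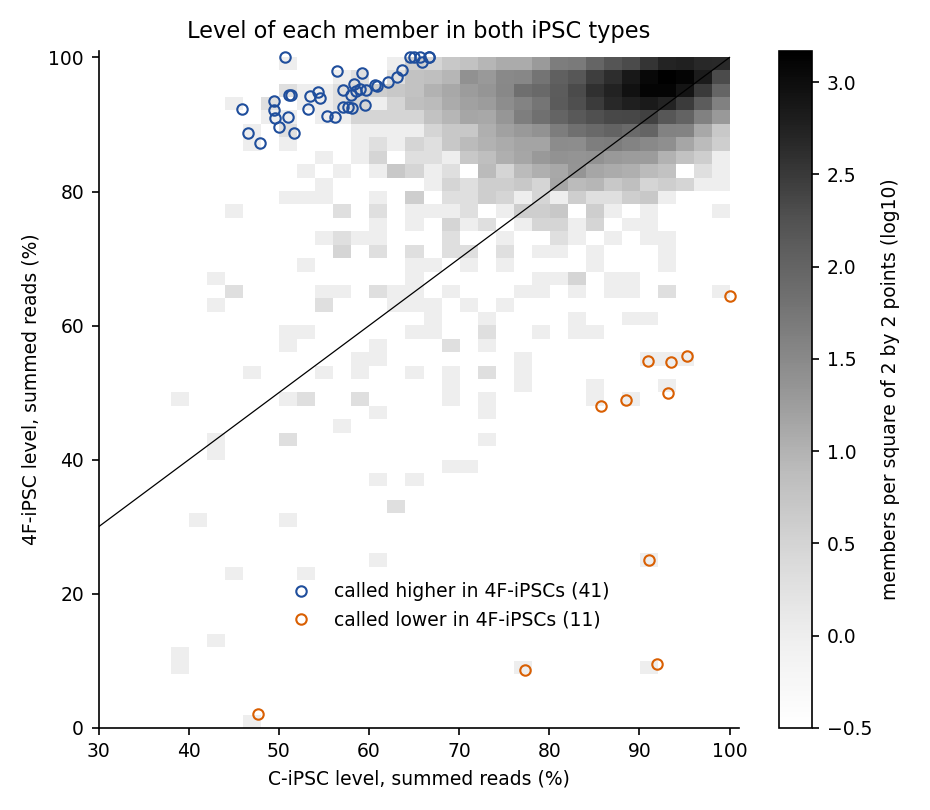
Level of each member on summed reads in C-iPSCs (horizontal, percent) and 4F-iPSCs (vertical, percent), with members per square as grey shade on a log10 scale and called CpGs as circles. The 41 higher calls have a median C-iPSC level of 57.1% and a median 4F-iPSC level of 94.4%, and the 11 lower calls at 91.1% and 49%.

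The 41 members called higher were spread over 15 chromosomes, with 26 intergenic and 13 in introns. Of them 34 were in soft-masked repeats, against 42.9% of all members, and 10 were in CCGG sites. Their median number of other CpGs within 100 bp was 10. The 10-base word accggccagg, or its reverse complement cctggccggt, lay within 20 bases of 15 of the 41, of 882 members (3.90%), of 845 of the soft-masked members (8.71%) and of 2081 of all compared CpGs (0.208%). This word was picked as the most frequent one around the 41 after their calls were known, so the share is a description.

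The 5 members with the largest higher calls were read in every library. At the CpG in an intron of Gm12649, nearest to Gm24796, the levels were 36.8% and 57.4% in C-iPSC replicates 1 and 2, and 92.5% and 92.2% in 4F-iPSCs (122 and 104 summed reads). At the CpG in an intron of Tmem268, nearest to Gm24448, they were 47.3% and 52.0% in the C-iPSC libraries and 93.7% and 93.3% in the 4F-iPSC libraries. Both CpGs lay in repeats, and in both the C-iPSC libraries were well below the 4F-iPSC libraries. The other compared CpGs within 1 kb differed less, with mean summed levels of 80.5% (C-iPSC) and 95.4% (4F-iPSC) around the first CpG, and of 87.6% (C-iPSC) and 95.9% (4F-iPSC) around the second. The differences were 46.4 points (adjusted p 2.79e-12) and 44.0 points (adjusted p 2.02e-25) with both 4F-iPSC libraries above both C-iPSC libraries at each. The intergenic CpG near Gm31049, chr5:77755886-77755887, had 40.7% and 57.6% in the C-iPSC libraries and 94.4% and 94.3% in the 4F-iPSC libraries, with 388 and 390 summed reads. The intronic CpG of B020018J22Rik, outside repeats, had 55.3% and 48.0% in the C-iPSC libraries and 93.0% and 96.1% in the 4F-iPSC libraries. Its C-iPSC reads were 100% methylated on the plus strand (13 reads) and 42.7% on the minus strand (75 reads), so its call rested on 1 strand. The CpG with the largest difference, near Gm4036 at chr12:21604669-21604670, had 36.4% and 61.4% in C-iPSCs and 100% in both 4F-iPSC libraries, but 4F-iPSC replicate 2 gave only 1 read there.

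Of the 11 members called lower 8 were outside repeats, against 57.1% of all members, and 7 were intergenic, against 52.3%. At chr9:123924733-123924734, an intergenic CpG 43959 bp from a start of the chemokine receptor gene Ccr1, the level was 91.3% and 92.4% in the C-iPSC libraries, 11.1% and 8.11% in the 4F-iPSC libraries, and 80.4% and 80.1% in mESCs. The 4F-iPSC libraries had 73 summed reads there, the C-iPSC libraries 1257 and the mESC libraries 960. The Wilson 95% intervals, which cover counting error only, were 90.3% to 93.3% for C-iPSCs and 4.72% to 18.5% for 4F-iPSCs, and the adjusted p was 1.11e-53. A second member of that region, chr9:123924959-123924960, had 90.7% and 91.4% in the C-iPSC libraries and 18.4% and 31.9% in the 4F-iPSC libraries. All 4F-iPSC reads at both members were on the minus strand. The other compared CpGs within 1 kb of the first averaged 71.3% (C-iPSC), 5.10% (4F-iPSC) and 61.1% (mESC), so the whole stretch was low in 4F-iPSCs. These CpGs had a median of 2350, 198 and 1249 reads in the same order, and the part of read depth in the difference was not tested.

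Near the Fc receptor gene Fcgr3, at chr1:171045152-171045153, the level was 42.5% and 51.8% in the C-iPSC libraries, 1.82% and 2.20% in the 4F-iPSC libraries, and 78.2% and 83.6% in mESCs. Each library had at least 128 reads at this CpG. The C-iPSC libraries were thus above the 4F-iPSC libraries. On reads summed by type the C-iPSC level was 45.1% on the plus strand and 49.6% on the minus strand, and the 4F-iPSC level was 1.72% and 2.19%. In an exon of Cep250, which encodes a centrosome protein, chr2:155989588-155989589 had 77.1% and 77.8% in the C-iPSC libraries and 7.69% and 10.0% in the 4F-iPSC libraries, on 53 and 23 summed reads. The other 2 compared CpGs within 1 kb had a mean C-iPSC level of 70.5% and a mean 4F-iPSC level of 88.1%, so the low 4F-iPSC level was limited to that CpG among those read. Every read at the Cep250 CpG was on the plus strand. The CpG near Gm43264, chr6:28460523-28460524, had 90.3% and 100% in the C-iPSC libraries and 44.4% and 60% in the 4F-iPSC libraries. It had 44 and 42 summed reads, all on the minus strand, with 13 in C-iPSC replicate 2 and 15 in 4F-iPSC replicate 2. Other compared CpGs within 1 kb of it differed less, with means of 84.7% (C-iPSC) and 77.4% (4F-iPSC).

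The lowest iPSC levels named further loci, most of them low in both iPSC types. A pair of members near Pip4p2, a phosphoinositide phosphatase gene, at chr4:14845729-14845730 and chr4:14845733-14845734, had summed levels of 38.9% and 39.3% in the C-iPSC libraries and 9.41% and 10.5% in the 4F-iPSC libraries. By library the first of them had 33.3% and 50% in the C-iPSC libraries and 13.6% and 4.88% in the 4F-iPSC libraries. Near Syde2, chr3:145978146-145978147 had 32.8% and 55.8% in the C-iPSC libraries and 14.3% and 13.6% in the 4F-iPSC libraries. At both loci the 4F-iPSC libraries were below the C-iPSC libraries, although the difference was under 33.3 points and no call was made. A CpG near Bex6 had 57.9% and 16.7% in the C-iPSC libraries and 0% and 54.8% in the 4F-iPSC libraries, on 31 and 54 summed reads. A CpG in an intron of Slc2a9, a urate transporter gene, had 14.3% and 77.8% in the C-iPSC libraries and 55.6% and 38.5% in the 4F-iPSC libraries, on 23 and 31 summed reads. At the CpGs of Bex6 and Slc2a9 the replicates of a cell type differed more than the cell types did.

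Runs of members gave regional values. Over the 6038 members in 1537 runs that had at least 10 reads in all 4 iPSC libraries, the mean level was 88.6% and 91.7% in C-iPSC replicates 1 and 2, and 95% and 95.3% in 4F-iPSC replicates 1 and 2. The nearest libraries were 3.31 points apart and the group means differed by 5.03 points, again with exact permutation p = 0.33. The longest run, near Gm9110, held 32 members among 45 compared CpGs over 2508 bp, and the second, also near Gm9110, held 20 among 31 over 1270 bp. In the longest run the levels were 87.9% and 94.6% in the C-iPSC libraries, 93.7% and 94.5% in the 4F-iPSC libraries, and 86.6% and 86.0% in mESCs. C-iPSC replicate 2 was above both 4F-iPSC libraries there, so the groups overlapped. No CpG of either run was soft-masked. No member of the 10 longest runs was called.

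**Figure D5:**
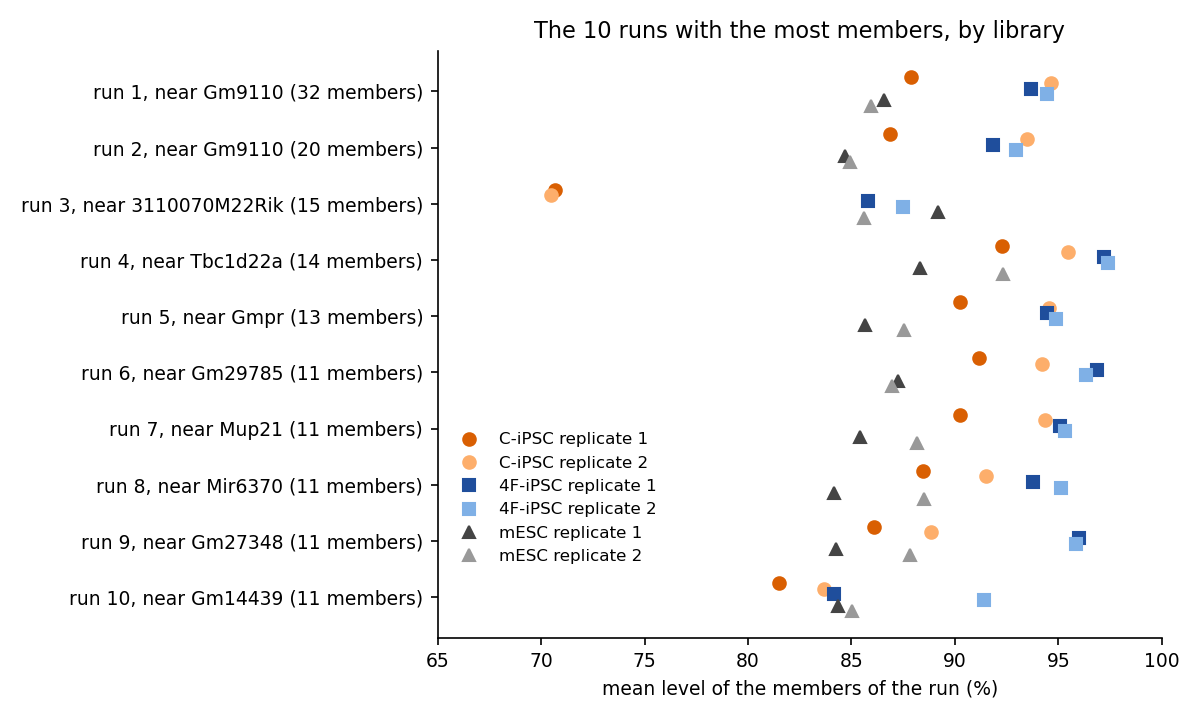
Mean level (percent) of the members of each of the 10 runs with the most members in all 6 libraries, 1 point per library, with runs named by the nearest transcript start. In the run near 3110070M22Rik the C-iPSC libraries are at 70.7% and 70.5% and the 4F-iPSC libraries at 85.8% and 87.5%.

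The run within Tmem267 on chromosome 13, which lay 8 bp from a start of 3110070M22Rik and in the promoters of both genes, had the third most members. Its 15 members in 112 bp, with a median of 38 other CpGs within 100 bp, averaged 70.7% and 70.5% in the C-iPSC libraries, 85.8% and 87.5% in the 4F-iPSC libraries, and 89.2% and 85.6% in mESCs. Both C-iPSC libraries were below both 4F-iPSC libraries, and the 4F-iPSC level was above the C-iPSC level at 15 of 15 members. The median depth there was 1752 summed reads in C-iPSCs, 3780 in 4F-iPSCs and 45 in mESCs, and the part of depth was not tested. The remaining compared CpGs of the Tmem267 promoter, 22 of 37, averaged 23.5% in mESCs, and those within the span of the run averaged 59.7%. Because mESC levels chose the members, the others are under 0.8 by choice and these values are a description.

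Other long runs lay in genes and repeats. The 14 members in an intron of Tbc1d22a, which encodes a protein with a Rab GTPase-activating domain, averaged 92.3% and 95.5% in the C-iPSC libraries and 97.2% and 97.4% in the 4F-iPSC libraries, and 78.6% of them were soft-masked. In an exon of Atxn1, the ataxin 1 gene, 13 members averaged 90.2% and 94.5% in the C-iPSC libraries and 94.5% and 94.9% in the 4F-iPSC libraries. The fully soft-masked run near Gm27348, with 11 members in 231 bp, had 86.1% and 88.9% in the C-iPSC libraries and 96.0% and 95.9% in the 4F-iPSC libraries. The C-iPSC libraries were below the 4F-iPSC libraries in the runs of Tbc1d22a and Gm27348, while in that of Atxn1 C-iPSC replicate 2 overlapped them.

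Promoters held 1088 members. Of 21146 genes with a compared promoter CpG 783 (3.70%) had a member there, 80 had at least 3, and in 65 of those most compared promoter CpGs were members. After 3110070M22Rik and Tmem267, the gene with the most promoter members was Peg13 (10 of 16), followed by the pseudogenes Gm12892 (9 of 21), Gm18715 (9 of 14) and Gm7290 (8 of 14). The genes Ftl1-ps2 and Gm26445 shared the same 8 members. At the Gm12892 promoter, chr4:122008236-122009060, the levels were 92.9% and 94.9% in the C-iPSC libraries and 97% and 97.5% in the 4F-iPSC libraries. At that of Ftl1-ps2 they were 79.8% and 85.3% in the C-iPSC libraries and 82.3% and 94.2% in the 4F-iPSC libraries. The groups were apart at Gm12892 and overlapped at Ftl1-ps2.

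Imprinted genes are expressed from only the maternal or the paternal copy. Of 45 listed imprinted genes with compared CpGs 6 had members, which came to 26 of 2118 compared CpGs (1.23%, against 1.33% over all genes). The Peg13 promoter, within an intron of Trappc9, belongs to a gene transcribed from the paternal copy. Its 10 members averaged 49.7% and 68.3% in C-iPSC replicates 1 and 2, 71.0% and 72.7% in 4F-iPSC replicates 1 and 2, and 85.6% and 83.5% in mESCs. The mESC values are high by choice. Among the iPSC libraries C-iPSC replicate 1 was lowest, both C-iPSC libraries were below both 4F-iPSC libraries, and the 4F-iPSC level was above the C-iPSC level at 10 of 10 members. None of these members was called. Trappc9 itself held 6 more members in introns. The 5 members in Rtl1, a paternally expressed gene of retrotransposon origin, averaged 88.7% and 95.7% in the C-iPSC libraries and 96.7% and 95.5% in the 4F-iPSC libraries. Igf2r and Herc3 had 2 members each.

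Of 18 listed germline genes with compared CpGs 5 had members (27.8%, against 21.4% of all genes). They came to 10 of 387 compared CpGs (2.58%, against 1.33% over all genes), and 1 of these lay in its gene's promoter, that of Dazl, which encodes an RNA-binding protein of germ cells. The Dazl member had 95.8% and 97.3% in the C-iPSC libraries and 93.0% and 98.2% in the 4F-iPSC libraries, and it was 1 of 82 compared CpGs of that promoter. Mov10l1, a helicase gene of the piRNA pathway, had 4 members in its body and Sycp1, a gene of the synaptonemal complex, had 3. Soft-masked repeats held 2 of the 4 in Mov10l1, all 3 in Sycp1 and the 1 in Stk31. The 1 member in Tdrd1 and the 1 in Dazl lay outside repeats. The part of repeats in the germline share was not tested. Of 12 listed genes linked to DNA methylation 4 had members, all outside promoters: Dnmt3a 7, Tet3 5, Dnmt1 2 and Dnmt3b 1. These members came to 15 of 919 compared CpGs (1.63%, against 1.33% over all genes). The 7 members in Dnmt3a averaged 90.7% and 94.8% in the C-iPSC libraries and 95% and 95.7% in the 4F-iPSC libraries. No member lay in the 18 pluripotency genes with compared CpGs (0 of 847) or in the 43 Hox genes (0 of 2495).

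Multigene families were read beside all genes, where 21.4% of genes had members and 1.33% of compared CpGs were members. Vomeronasal receptor genes, which detect pheromones, had members at 57 of 484 compared CpGs (11.8%) in 22 of 99 genes. Olfactory receptor genes had 31 of 549 (5.65%) in 19 of 124 genes. Zfp zinc finger genes had 134 of 14210 (0.943%) in 62 of 340 genes, and protocadherin genes, which encode cell adhesion proteins, had 8 of 917 (0.872%) in 13 of 33 genes, whose overlapping transcripts share CpGs. Families also differed in how many compared CpGs lay in promoters, where few CpGs were members: 89 of 484 for vomeronasal receptor genes, 9693 of 14210 for Zfp genes and 541523 of 814727 over all genes. Of the 5 named vomeronasal genes, soft-masked repeats held 12 of 12 members in Vmn2r-ps94, 5 of 5 in Vmn2r-ps111 and 4 of 4 in Vmn2r7. They held 1 of 5 in Vmn2r78 and 0 of 4 in Vmn1r42. In the 5 named olfactory genes they held 4 of 5 in Olfr1428 and 3 of 3 in Olfr1152. They held 0 of 3 in Olfr1414, 2 of 2 in Olfr56 and 2 of 2 in Olfr537-ps1. The part of promoter content and of repeats in the shares was not tested. The 12 members of the pseudogene Vmn2r-ps94, among 18 compared CpGs, lay in soft-masked introns and averaged 80.5% and 83.1% in the C-iPSC libraries and 93.3% and 91.9% in the 4F-iPSC libraries. Of these 12 members 1 was called higher. At Olfr1428 all 5 compared CpGs were members, with 89.9% and 89.6% in the C-iPSC libraries and 93.6% and 94.7% in the 4F-iPSC libraries. In both genes the C-iPSC libraries lay close together and below the 4F-iPSC libraries. In Zfp982 the libraries were at 88.9% and 93.4% (C-iPSC) and at 90.1% and 90.4% (4F-iPSC), so the groups overlapped. They also overlapped in Vmn2r-ps111, at 90.7% and 97.5% (C-iPSC) and at 93.3% and 96.5% (4F-iPSC). Zfp935 had 16 members and the overlapping Zfp934 had 12. The 12 of Zfp934 averaged 86.0% and 86.2% in the C-iPSC libraries and 95.2% and 96.0% in the 4F-iPSC libraries, and 1 of them was called higher.

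The cell type labels were checked at promoters of marker genes. CpGs with at least 10 reads lay in the promoters of 5 of 7 pluripotency markers, where the mean level over genes ran from 3.15% in mESC replicate 1 to 12.1% in 4F-iPSC replicate 2, and in 4 of 7 fibroblast markers, where it ran from 5.92% to 13.1%. No member lay in any of these promoters. Both marker sets were low in every library. No fibroblast library was among these samples, and the fibroblast RRBS data that the paper took from another study were not used here. These values therefore do not tell how fibroblasts would read, and the part of remaining feeder fibroblasts in the results was not tested.

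The exact permutation test used for means over members could not pass a threshold with 2 libraries of each type, and members that share a fragment or a repeat are not independent of each other. About 67% of members were read on only 1 strand.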

How the data were processed

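RRBS reads of 6 libraries were aligned by the authors to mm10 with BSMAP 2.90, and the deposited values are, at each CpG, counts of all and of methylated reads and the methylated fraction. The deposited fraction was checked against the counts and the counts were used. Both libraries of a type were added up, autosomal CpGs that then had 20 or more reads in all 3 types were compared, and those with an mESC level of at least 0.8 are the members. The members and the gene lists were chosen with earlier results of these data known.

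Positions came from GENCODE M21 basic transcripts, with promoters 1 kb to each side of a start, followed in rank by 5'UTR, 3'UTR, other exon, intron and no gene. Soft-masking, CpG density within 100 bp and copies of the 26-base word were read from the GRCm38 sequence. 4F-iPSCs and C-iPSCs were compared on the added reads by Fisher's exact test, two-sided, with Benjamini-Hochberg adjustment over all 1001531 compared CpGs, and means over members by two-sided exact permutation test over libraries. A quasi-binomial regression with dispersions moderated by limma 3.58.1 (R 4.3.3) took libraries as replicates. Intervals are Wilson 95% intervals. The calls were tested on simulated data in which both libraries of a type had the same level at each CpG. Spread between libraries was thus not covered. Python 3.11.15, numpy 2.4.6, pandas 2.3.3, scipy 1.17.1, numba 0.67.0 and matplotlib 3.10.9 were used.

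Named loci are the 10 runs and the 10 promoters with the most members, the 5 largest calls in each direction, the 5 lowest levels in each iPSC type, up to 5 genes of each list and the 5 most shared words. Alternatives tried were coverage minima of 10 and 50, an mESC level of at least 0.9, at least 10 reads in each mESC library, each library left out, other tests, a difference above 0.2, a replicate block, pooled reads, other promoter and density windows, longer runs, and, chosen after seeing the data, words with 1 copy in the genome and pooled reads without the deepest CpGs. Sex chromosomes were left out by the rule. Repeat classes were not annotated in the reference used.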

Additional observations from a re-analysis of the deposited data

How the results depend on the processing

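No result changed its direction under the alternatives run. The mean difference between 4F-iPSCs and C-iPSCs over members was 4.64 points, ranged from 2.10 to 7.22 with single libraries left out, was 2.94 at an mESC level of at least 0.9 and 3.56 on pooled reads (4.76 without CpGs over 100000 reads, chosen after seeing the data), and was 4.64 with the replicate block, since paired and unpaired means are equal here. Over runs it was 5.03 with the replicate block and ranged from 3.37 to 6.58 over the alternatives. The replicates were paired by number only; the differences between replicates 1 and 2 correlated at 0.104 over members, which does not show a pairing. Requiring 10 summed reads gave 80 members called higher, 45.5% in soft-masked repeats and 98.3% at least 0.8 in 4F-iPSCs. Requiring 50 gave 20 called higher and 7 lower. An mESC level of at least 0.9 left 3673 members, by construction, with 7 called higher, 2 lower, 58.2% in repeats, 4.49% in promoters and 6.33 other CpGs within 100 bp. A difference above 0.2 gave 336 called higher and 39 lower, and the quasi-binomial test 27 higher. Promoters from 2 kb upstream to 0.5 kb downstream held 5.31%, and density within 50 bp, scaled, was 6.08. Choosing on mESC replicate 2 gave 40.1% at least 0.8 in replicate 1. Chosen after seeing the data, words with 1 copy gave 16 called higher, 19.6% in repeats, 5.35% in promoters and 4.4 other CpGs. With 1 library left out, called higher ranged from 28 to 127, called lower from 9 to 19, the share in repeats from 37.6% to 40.6%, in promoters from 4.72% to 5.09%, density from 5.02 to 5.24, the share at least 0.8 from 86.3% to 95.3% in C-iPSCs and from 98.4% to 98.8% in 4F-iPSCs. The cause of these changes was not tested.

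Depth limits single CpGs: at the minimum of 20 reads a level of 80% has a Wilson 95% interval from 58.4% to 91.9%, and at the median of 87 mESC reads a level of 80.5% has one from 70.9% to 87.4%. These reads carry no molecular identifiers and may repeat a molecule, so the intervals cover counting error only. Members in repeats rest on uniquely mapped pairs as the authors defined them.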
